A study of Mus musculus with 15 samples.

Results

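The comparison described here set mouse spermatogonial stem cell cultures that had been given back 2 withdrawn factors for 8 h against cultures sampled at the end of the withdrawal. Its members are 6 of the 15 arrays of the series, the 3 whose titles name 8-hr replacement and the 3 whose titles name an 18-hr withdrawal. The cultures were enriched for germline stem cells and came from C57BL/6 male mice aged 6 days. Both groups went without glial cell line-derived neurotrophic factor (GDNF) and its soluble co-receptor GFRalpha1 for 18 h, and only the replacement group then received both again, for 8 h. Other arrays of the series, 3 per group, hold maintained cultures that were not deprived and cultures after 2 h or 4 h of replacement, and they are used here for orientation. The labels name no cultures kept without the factors for as long as the replacement cultures lived, and none handled alike without receiving them. What the factors did and what handling or 8 more hours of culture did cannot be told apart. Whether the replicates came from separate cultures is not stated in the labels, so p-values measure the spread between these arrays, which may be technical.

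GDNF is made by somatic cells of the testis and acts on spermatogonial stem cells through GFRalpha1 and the receptor tyrosine kinase RET. The activated receptor feeds the RAS to ERK cascade, the PI3K to AKT pathway and SRC family kinases. ERK activity switches on immediate-early transcription factors, and it also switches on phosphatases and Sprouty proteins that damp the cascade again. In these stem cells the pathway is known for keeping transcription factors of self-renewal such as Bcl6b, Etv5, Id4 and Lhx1 expressed.

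Values are MAS5 signal in arbitrary units, with 3 arrays in each group, and means are given ± SD with n = 3. Differences are limma estimates on the scale of log2(signal + 16), 8 h of replacement minus withdrawal. Among the 13083 genes tested, 170 were higher after 8 h of replacement and 143 lower at an adjusted p under 0.05, or 1.3% and 1.09% of genes. Of these, 60 rose and 28 fell at least 2-fold, and the median difference over all genes was 0.01. The shares of 1.3% and 1.09% are the background for each count of called list members below. At this number of arrays the smallest p of an exact rank test is 0.1, so limma, which borrows spread across genes, carries the calls. The arrays of both groups did not overlap for 312 of the 313 called genes and for 21.5% of all genes. Where a called gene is said not to overlap, this is no separate support for its call. All arrays had a trimmed mean signal of 150 and median signals of 42.5 to 55.8. Across the 13083 genes tested, on the log2 scale, each correlated with every other array at 0.928 or more. Withdrawal replicate 3 differed from the rest in the ratio of 3' to 5' control signal, 2.77 for beta-actin against 1.10 to 1.75 elsewhere, a sign of RNA quality. Leaving that array out gave 353 calls, 227 up and 126 down, and 220 of these genes were among the 313. The count was 125, 100 and 110 without 8 h replicates 1, 2 and 3, and 204 and 189 without withdrawal replicates 1 and 2. It was 121 when only these 6 arrays were fitted and 1192 with array weights. The test called 66 of the 86 genes taken by the naming rule, and 27 of these kept that call in every alternative that tested them, of 18 tried. Plk3 and Nim1k were tested in 17, since the stricter filter on dim probe sets left them out. The 27 were Etv4, Etv5, Egr2, Bcl6b, Lhx1, Cxcr4, Epha2, Dusp6, Spry4, Plk3, Nim1k, Bhlhe40, Tcl1, Hk2, Adh1 and Serpinb1a among the rises, and Ddit4, Foxo1, Camk2n1, Zmym3, Cd274, Smoc1, Acaa1b, Tent5c, Chaf1b, Smc1b and Socs3 among the falls. The other 39 lost their call under 1 or more alternatives.

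**Figure D1:**
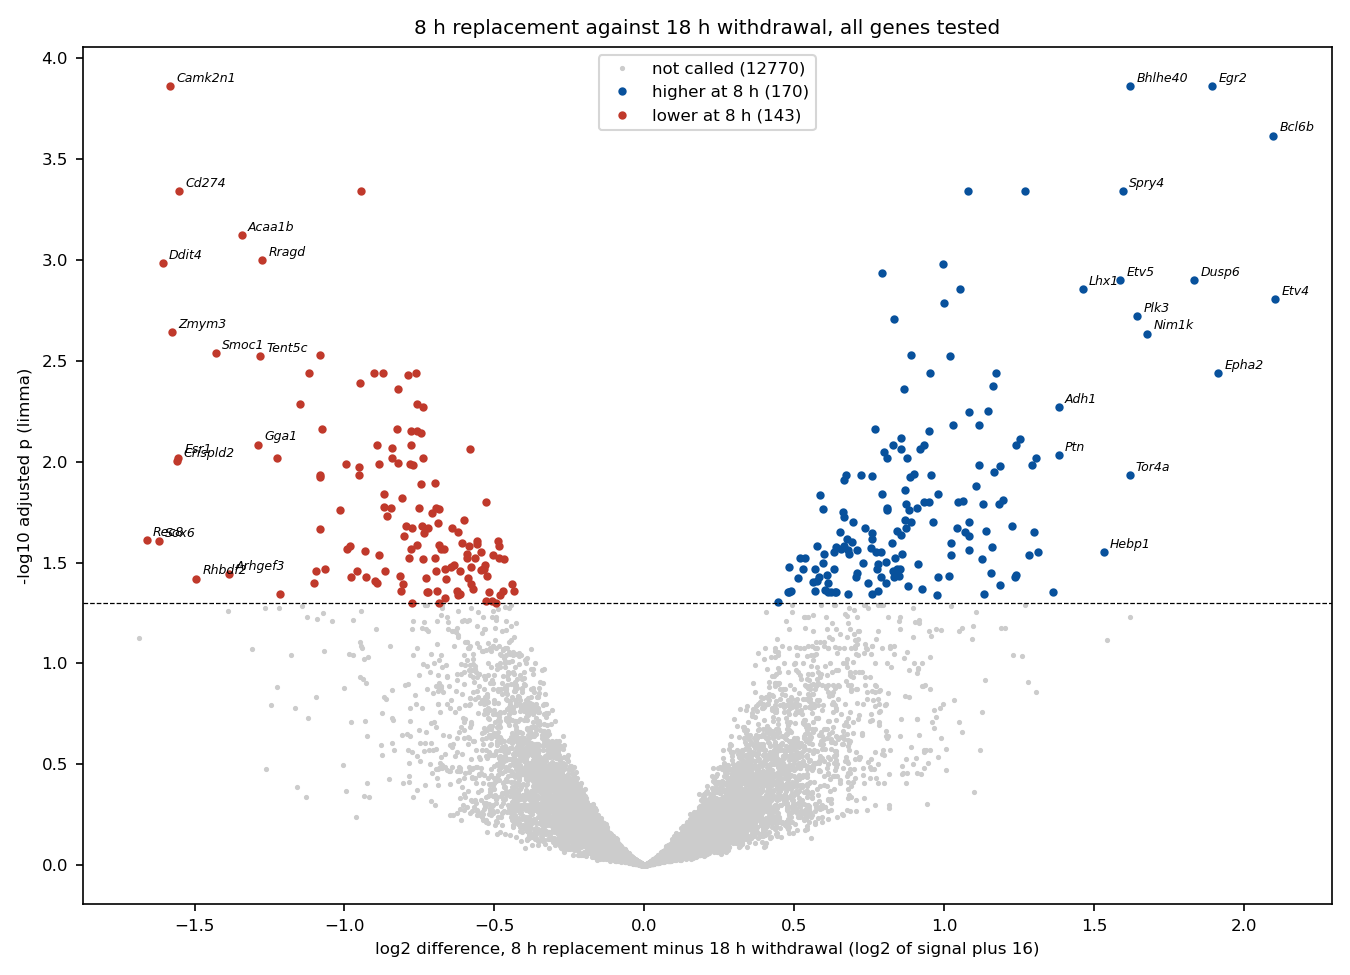
Minus log10 of the limma adjusted p (vertical axis) plotted against the log2 difference, 8 h of replacement minus withdrawal (horizontal axis), for the 13083 genes. Called genes are coloured. Among the labelled higher genes Etv4 and Bcl6b, each at 2.10, lie farthest to the right.

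Transcription factors and feedback regulators downstream of ERK led the rises. Of 43 ERK immediate-early and feedback genes tested, 16 rose, none fell and 34 had a positive difference, with a list median of 0.61 against 0.01 over all genes. The background is the 1.3% of all genes called higher and the 51.8% with a positive difference. Without withdrawal replicate 3 the count was 14, and the lowest count over the alternatives, 11, came without 8 h replicate 2 and when only both groups compared were fitted. The ERK list shares Egr2 and Etv5, which rose, and Egr3 with a list of GDNF-regulated genes that the laboratory drew from these samples. For the shared genes the count gives no independent evidence.

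Etv4, an ETS transcription factor that is a standard ERK target, read 65.9, 43.7 and 26.9 on the withdrawal arrays and 198, 292 and 237 after 8 h of replacement. Every replacement array was above every withdrawal array, and the group means differed by 2.10 on the log2 scale (SE 0.30, 4.3-fold, adjusted p = 0.00157), and maintained cultures were at 276 ± 91.6. The related factor Etv5, which is needed for stem cell maintenance, read 434, 332 and 297 against 966, 1188 and 1103, a difference of 1.59 (SE 0.22, adjusted p = 0.00126), with 1108 ± 369.5 in maintained cultures. Egr2, an immediate-early zinc finger factor, read 245, 171 and 158 against 731, 706 and 792. The 3 replacement arrays lay close together and well above the highest withdrawal array, with a difference of 1.89 (SE 0.19, adjusted p = 0.000137). Another probe set each of Etv4 (0.57) and Egr2 (0.64), both dimmer, was not called higher.

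Among the listed feedback genes named Dusp, Spry or Spred, only Dusp6, Dusp7 and Spry4 were called higher, and no other tested one was called. Dusp6, a phosphatase that inactivates ERK, read 419.6, 364 and 229 on the withdrawal arrays and 1187, 1386 and 1075 after replacement, a difference of 1.83 (SE 0.26, adjusted p = 0.00126). Spry4, a Sprouty inhibitor of receptor signalling, read 126, 93.6 and 113 against 398, 332 and 368, a difference of 1.59 (SE 0.20, adjusted p = 0.000453). In neither gene did the groups overlap, and for both the replacement mean was near that of maintained cultures (1123 ± 434 for Dusp6 and 349 ± 89.8 for Spry4). Epha2, a receptor for ephrin-A ligands, read 114, 26.5 and 49.9 against 243, 211 and 316, and its withdrawal arrays were the more scattered (difference 1.91, SE 0.31, adjusted p = 0.00364). Plk3, a polo-like kinase induced early by growth factors, was near the bottom of the scale after withdrawal at 7.3, 8.9 and 6.2 and read 53, 53.2 and 66.2 after replacement. Its difference of 1.64 (adjusted p = 0.0019) depends on the constant of 16, since the withdrawal signal lay under 30.5, the limit set for dim probe sets.

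Other risen members of the ERK list changed less. Junb read 90.8, 125 and 120.0 against 236, 250.2 and 272 (difference 1.08, adjusted p = 0.000453) and Ier2 234, 187 and 235 against 459, 432 and 461 (difference 1.00, adjusted p = 0.00105). Junb is a subunit of the AP-1 transcription factor, and Ier2 an immediate-early response gene. Egr1, the archetypal serum-response gene, read 1389, 1212 and 1743 against 2579, 3155 and 2934, a difference of 1.00 (adjusted p = 0.00164). At 2 h of replacement its mean was higher than at 8 h, at 4818 ± 477 against 2889 ± 291. Fos (0.85), Ier3 (0.83), Zfp36 (0.76), Dusp7 (0.71), Phlda1 (0.67) and Myc (1.06) complete the 16 on the log2 scale. Myc was dim after withdrawal, at 15.4, 16.9 and 14, against 50.6, 58.6 and 40.7 after replacement, and its difference depends on the constant. Members that were not called include the Sprouty inhibitor gene Spry2 at 0.77 (adjusted p = 0.13) and Egr4 at -0.33 (adjusted p = 0.429).

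Promoter sequence was examined for motifs that bear on these factors, in RefSeq windows (build GRCm38.p6) of the 250 bases before a gene's start site, searched on both strands. The CArG box, bound by serum response factor at immediate-early genes, was chosen after the values were seen. It matched 1.47% of 32851 windows, and among the 10 risen ERK genes with a window it matched Egr2 and Zfp36. A gene was counted when any of its windows matched, so counts of genes and shares of windows are in different units. The ETS motif CCGGAAGT matched 2.88% of windows and none of those 10 genes. Among 52 named called genes with a window, the CArG box matched Egr2 and Gga1, the ETS motif Gga1, the sterol element TCACNCCAC Sox6 (1.05% of windows), and the E-box CACGTG Egr2, Hebp1, Crispld2 and Pld6 (6.02% of windows). The windows with a CArG box are shown with motif matches in capitals. That of Egr2 lies at chr10:67537680-67537929 on the plus strand, with the CArG box starting 133 bases before the start site, and it is 1 of 5 windows of the gene, of which 4 hold the box. That of Zfp36 lies at chr7:28379229-28379478 on the minus strand, with the box 58 bases before the start. That of Gga1 lies at chr15:78876940-78877189 on the plus strand, with the CArG box 80 and the ETS motif 26 bases before the start. Gga1, a Golgi sorting adaptor, did not rise but fell, from 224, 232 and 339.5 to 70.8, 149 and 85.5 (difference -1.29, adjusted p = 0.00822), so windows with this motif belonged to genes that moved either way.
Egr2: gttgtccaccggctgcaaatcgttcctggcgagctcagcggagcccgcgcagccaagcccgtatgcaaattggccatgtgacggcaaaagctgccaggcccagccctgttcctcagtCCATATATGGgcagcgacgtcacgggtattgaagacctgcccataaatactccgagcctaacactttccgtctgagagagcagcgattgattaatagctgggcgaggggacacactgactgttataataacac
Zfp36: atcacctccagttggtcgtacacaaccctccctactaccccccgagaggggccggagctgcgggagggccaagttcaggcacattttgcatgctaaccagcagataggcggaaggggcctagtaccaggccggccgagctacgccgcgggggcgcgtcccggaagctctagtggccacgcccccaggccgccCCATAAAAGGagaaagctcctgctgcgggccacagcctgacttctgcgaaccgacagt
Gga1: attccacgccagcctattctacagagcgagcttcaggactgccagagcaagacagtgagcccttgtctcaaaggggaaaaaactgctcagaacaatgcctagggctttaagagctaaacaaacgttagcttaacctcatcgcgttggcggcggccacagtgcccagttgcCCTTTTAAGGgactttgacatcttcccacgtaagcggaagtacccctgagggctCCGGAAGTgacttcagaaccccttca

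In the laboratory's own list of 8 GDNF-regulated genes, 5 rose and none fell, with a median of 1.35. Because that list was drawn from these samples, it gives no independent evidence of a direction. Bcl6b, a transcriptional repressor of the BTB family, read 96.4, 66 and 116 after withdrawal and 374, 523 and 438 after 8 h of replacement. The 3 replacement arrays were all far above the highest withdrawal array, and the difference was 2.10 (SE 0.23, adjusted p = 0.000242). The mean passed through 241 ± 97.3 at 2 h and 281 ± 19.6 at 4 h, and maintained cultures stood at 629.7 ± 143.

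Lhx1, a LIM homeobox factor, read 138, 113 and 91.2 against 372, 303 and 343, a difference of 1.46 (SE 0.21, adjusted p = 0.00139), with 484 ± 73.5 in maintained cultures. Its other probe set was called as well, at 1.20. Cxcr4, the receptor of the chemokine CXCL12 and a factor in stem cell homing, read 85.1, 80.2 and 65.9 against 239, 151 and 231, a difference of 1.24 (adjusted p = 0.00826). Maintained cultures were higher still for this gene, at 393 ± 42.4, without a call between them and 8 h (difference -0.90, adjusted p = 0.0747). The remaining members of the list, Egr3 (0.47), Tspan8 (0.30) and Pou3f1 (0.21), were not called. For Egr3 and Tspan8 another probe set was, at 1.69 and 1.23.

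Among 28 genes of undifferentiated spermatogonia tested, 7 rose and 2 fell, with a median of 0.36, against 1.3% and 1.09% of all genes. Of the risen members, Bcl6b, Etv5 and Lhx1 also belong to the laboratory's list drawn from these samples. For these genes the count gives no independent evidence. Id4, a helix-loop-helix protein without a DNA-binding region and a stem cell marker, read 422, 399.8 and 263 on the withdrawal arrays and 856, 605 and 780.1 after replacement. The groups did not overlap (difference 1.03, SE 0.18, adjusted p = 0.00654), and both lay below the 1301 ± 207 of maintained cultures. The other 2 probe sets of Id4 were not called, at 0.49 and 0.52, and the call ended with the mean of its probe sets. Epcam, an epithelial adhesion molecule of early spermatogonia, read 932, 813 and 733 against 1599, 1500.2 and 1281 (difference 0.81, adjusted p = 0.0173). The other risen members, Bcl6b, Etv4, Etv5, Lhx1 and Dusp6, are described above. The 2 that fell were Foxo1 and Upp1. Zbtb16, the PLZF repressor of undifferentiated spermatogonia, was not called (-0.40, adjusted p = 0.365), and its withdrawal arrays at 2107, 2157 and 3140.4 overlapped those after replacement at 1516, 2537 and 1621.

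**Figure D2:**
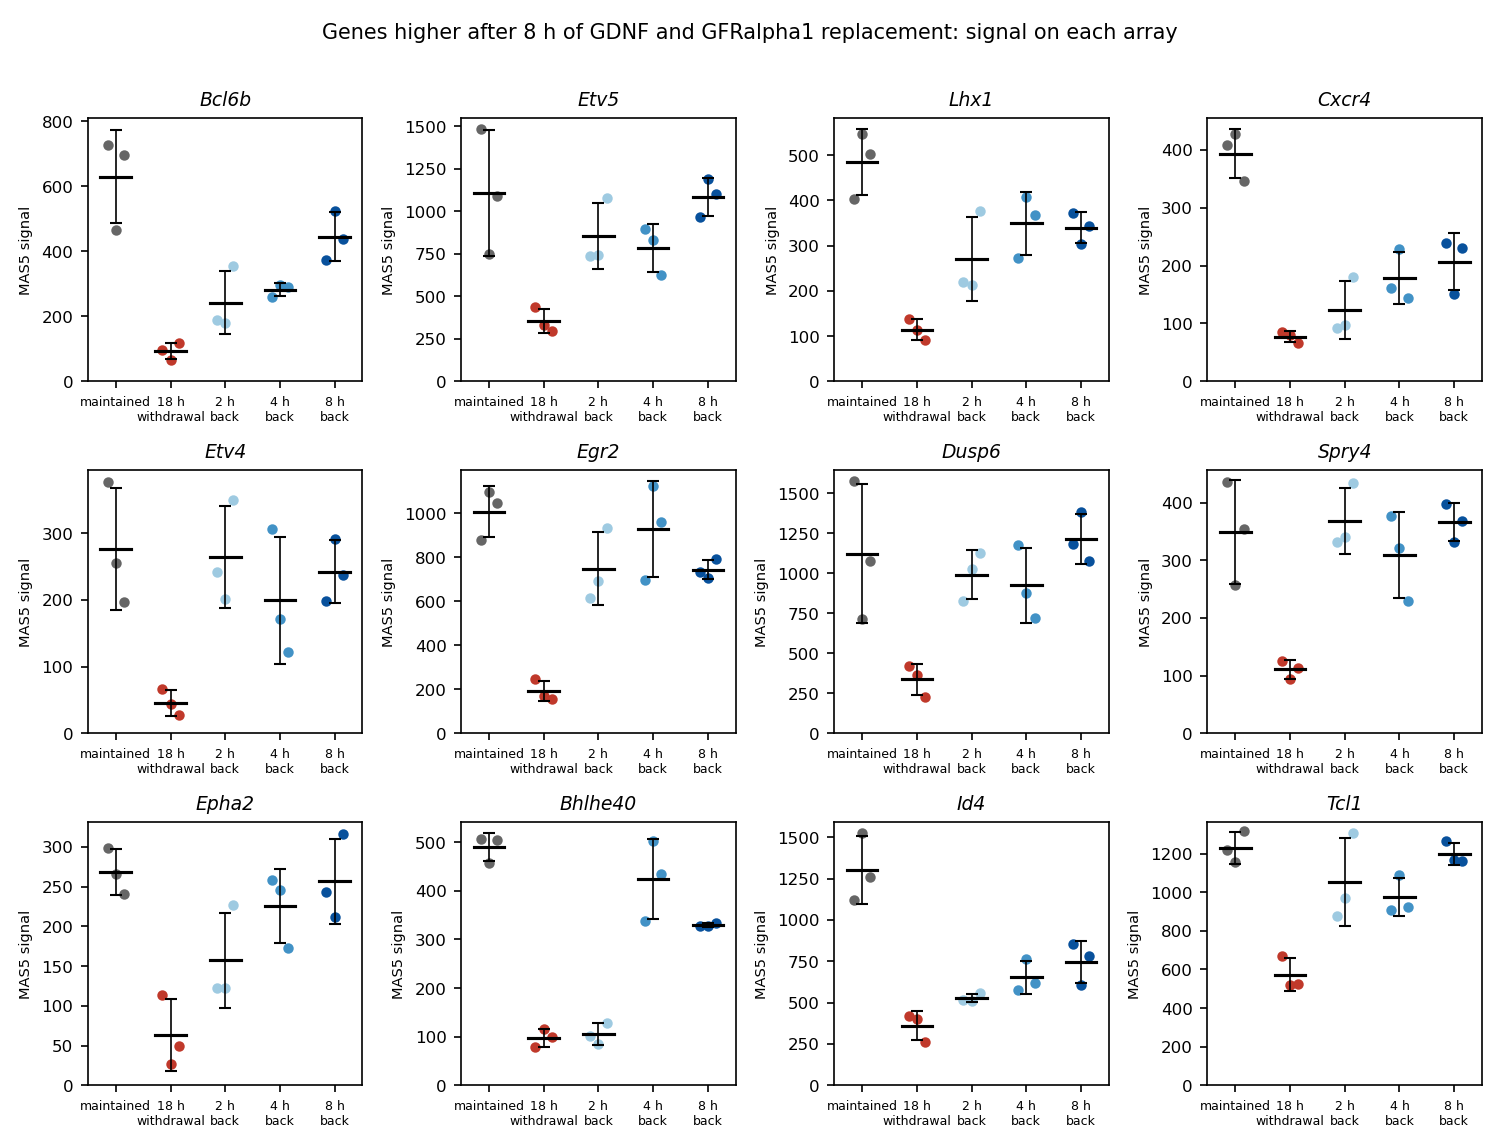
MAS5 signal on each array (points), with group mean (bar) and SD (error bar), for 12 genes that were higher after 8 h of replacement, across maintained, withdrawal and replacement groups. In each panel the 3 arrays after 8 h lie above the 3 withdrawal arrays, and groups did not overlap for 312 of the 313 called genes. Bcl6b goes from 92.9 ± 25.3 to 445 ± 74.8.

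Few receptor and ligand transcripts passed the test. Of 14 ligands and receptors of the GDNF and FGF families tested, none rose and 1 fell, with a median of 0.12. Gfra1, the co-receptor gene, read 881, 720.0 and 830.2 against 1086, 1066 and 1026. The replacement arrays were all higher, but the difference of 0.38 (95% interval -0.03 to 0.80) was not called (adjusted p = 0.374). Its 2 other, dimmer probe sets stood at 1.54 and 1.20, neither called, and the mean of its probe sets gave 1.04. Ret read 826, 723 and 321 against 760.2, 836 and 790.2, with overlap and its lowest value on withdrawal replicate 3 (difference 0.45, 95% interval -0.27 to 1.16). Fgfr4, an FGF receptor, fell by 0.73 (adjusted p = 0.0376), from 127, 115 and 123 to 79, 71.4 and 53.1, a call that ended under most alternatives, among them each array left out in turn. Transcripts of GDNF itself were below the filter on dim signal, as were Fgf2, Fgf5 and Fgf8.

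Several further genes were among the 15 largest rises. Bhlhe40, a repressor of the circadian loop, read 78.1, 115 and 99.1 against 327, 327 and 334, with almost no spread after replacement (difference 1.62, SE 0.17, adjusted p = 0.000137). It was the 1 called gene of 16 clock genes, whose median was 0.04 and turned to -0.01 with arrays shifted to 1 median. At 2 h of replacement Bhlhe40 was still at 105 ± 22.5, and at 4 h it was at 425 ± 82.6. Nim1k, a kinase gene of the AMPK-related family, rose from 8.2, 19.8 and 2.2 to 65.8, 52.9 and 75.5, from a dim signal that makes its difference of 1.68 depend on the constant. Ptn, encoding the heparin-binding growth factor pleiotrophin, read 440.3, 455 and 871 against 1336, 1908 and 1282 (difference 1.38, adjusted p = 0.00928), with withdrawal replicate 3 nearest to the replacement arrays. Tor4a (1.62, adjusted p = 0.0117) and Hebp1 (1.53, adjusted p = 0.0281) rose from scattered withdrawal arrays, and each lost its call when only both groups compared were fitted.

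Few markers of pluripotency and of differentiation were called. An unadjusted limma p under 0.05 was found for 4 of 15 pluripotency-linked genes and 8 of 18 progenitor and differentiation genes. Over all genes the share was 15.3%. Of 15 pluripotency-linked genes, Tcl1 and Dppa4 rose and none fell, with a list median of -0.21 and a mean of -0.02. Tcl1, a co-activator of AKT, read 670.3, 518 and 527 against 1264, 1168 and 1159 (difference 1.05, SE 0.15, adjusted p = 0.00139), close to the 1230.5 ± 82.3 of maintained cultures. Dppa4 rose by 0.53 (adjusted p = 0.0339), and Pou5f1, the germline and pluripotency factor OCT4, was at -0.42 (adjusted p = 0.147). Of 18 genes of progenitor and differentiating spermatogonia, Ccnd2, a D-type cyclin, was higher (0.78, adjusted p = 0.0323) and the de novo DNA methyltransferase gene Dnmt3b lower (-0.69, adjusted p = 0.02). Another, dimmer probe set of Dnmt3b was not called (-0.27). The Dnmt3b call ended with the mean of its probe sets and without each 8 h replicate. Kit (0.34), Stra8 (0.91), Neurog3 (-0.74) and Sox3 (-0.76), markers of progenitors and of commitment, were not called. The arrays of both groups did not overlap for these 4 genes, which was also so for 2808 of all 13083 genes, or 21.5%. Sox3 read 1156, 1438 and 1241 against 657, 832 and 763 (adjusted p = 0.0836), while maintained cultures were at 403 ± 83.6.

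Of 18 meiotic and haploid genes 2 fell and none rose, with a median of -0.10. They were the cohesin genes Smc1b, which read 626, 529.6 and 592 against 323, 380.4 and 309.5 (difference -0.76, adjusted p = 0.00364), and Rec8, which read 96.5, 62.9 and 162 against 10.3, 45.2 and 15.2. Rec8 had the largest fall of all named genes (-1.66, SE 0.37, adjusted p = 0.0244), but the replacement signal was dim. The Rec8 call ended without withdrawal replicate 1 or 3, without 8 h replicate 1 or 3, and when only both groups compared were fitted. Of 22 germ cell RNA-binding and piRNA genes 1 fell, Pld6, a mitochondrial enzyme of piRNA formation (-0.78, adjusted p = 0.00706). The general germ cell markers Ddx4 and Dazl were not called. Dazl read 6257, 6677 and 4112 against 6088, 5689 and 5737 (difference 0.07, 95% interval -0.30 to 0.44).

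Genes of growth arrest and nutrient sensing were among the falls. Ddit4, an inhibitor of the growth kinase complex mTORC1 that is induced by stress and starvation, read 2318, 2571 and 3856 after withdrawal and 1135, 607 and 1138 after 8 h of replacement. The groups were well apart (difference -1.61, SE 0.22, adjusted p = 0.00104), and maintained cultures were at 1193 ± 59. Foxo1, a transcription factor that AKT keeps out of the nucleus, read 845, 851 and 1028 against 482, 586 and 491 (difference -0.79, SE 0.13, adjusted p = 0.00372), with 533 ± 38.7 in maintained cultures. Of the 2 other probe sets of Foxo1, 1 stood at 0.05, not called, and 1 at -0.76, called. Txnip, an inhibitor of glucose uptake, fell from 1263, 1618 and 1443 to 809.5, 914 and 706 (difference -0.82, adjusted p = 0.00435). Its other probe set, at -0.06, was not called, and the call ended with the mean of both. These 3 were the called members of 31 CDK inhibitors and growth-arrest FOXO targets, whose median was -0.21. Foxo3, a member that was not called, was at -0.76 (adjusted p = 0.144).

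Rragd, a Rag GTPase that couples amino acids to mTORC1 and is induced when TFEB family factors are active, read 959, 1282 and 1196 against 438, 550.4 and 405. It fell by 1.27 on the log2 scale (SE 0.17, adjusted p = 0.000997) and was still above the 257 ± 27.7 of maintained cultures. Its dimmer probe set was not called (-0.41), and the call ended with the mean of both. No other of 35 lysosome, autophagy and Rag GTPase genes was called, and their median was 0.12. In the list of 28 amino acid supply and ATF4 response genes, Ddit4 and Trib3, a pseudokinase induced by ATF4, fell (Trib3 -0.81, adjusted p = 0.0151). Of 20 PI3K, AKT and mTOR genes none was called in limma, with 5 at an unadjusted p under 0.05 and a median of 0.07. Of all 13083 genes, 2000 had an unadjusted p under 0.05, or 15.3%.

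Few genes of the other signalling lists were called. Of 19 JAK-STAT and SRC family genes 2 fell and none rose, with a median of 0.06, where 1.09% of all genes fell. Socs3, the feedback inhibitor of cytokine signalling, read 1786, 1778 and 2059 against 1050.1, 1125 and 1128 (difference -0.76, adjusted p = 0.00518), and its 2 other probe sets were not called. Pim3, a survival kinase of the PIM family, read 522, 593 and 880.3 against 275, 221 and 433 (difference -1.08, adjusted p = 0.0116), while its 2 other probe sets, at -0.22 and 0.27, were not called. Rspo1, a secreted agonist of WNT receptors, read 198, 221 and 237 against 106, 73.9 and 108, a fall of 1.08 (adjusted p = 0.0216) that left it above the 30.7 ± 12.3 of maintained cultures. Its call ended without withdrawal replicate 2 or 3 and without each 8 h replicate. Rspo1, which fell, and Id4, which rose, were the called members of 41 WNT, Notch, BMP and TGF-beta genes (median 0.13).

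The other large falls were a mixed set. Camk2n1, which encodes an inhibitor of CaM kinase II, read 811, 791 and 1023 against 243, 302 and 297 (difference -1.58, SE 0.17, adjusted p = 0.000137). The mean stepped down from 641 ± 129.9 at 2 h to 546 ± 103 at 4 h and 281 ± 32.8 at 8 h, and maintained cultures were at 152 ± 10.2. Another, dimmer probe set of Camk2n1 was not called (-0.11). Zmym3, a zinc finger component of LSD1 and HDAC complexes, read 681, 873 and 902 against 196, 397 and 231 (difference -1.57, SE 0.24, adjusted p = 0.00227). Of its 3 other probe sets 2 were called, at -1.34 and -1.14, and 1 was not, at -0.44. Together with Phf21a, a histone reader of that complex (-0.95, adjusted p = 0.0117), and Dnmt3b, these were the 3 genes that fell among 35 of DNA methylation, histone modification and the CoREST complex, of which none rose (median -0.09).

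Cd274, the immune checkpoint ligand PD-L1, read 240.5, 309 and 223 against 87, 88 and 57.8 (difference -1.55, SE 0.19, adjusted p = 0.000453). The estrogen receptor gene Esr1 fell from the tight values 116, 122 and 117 to 16.8, 36.7 and 39.1 (difference -1.55, adjusted p = 0.00955). A dimmer probe set of Esr1 was not called, and the call ended with the mean of the probe sets and without 8 h replicate 1. Smoc1, a secreted calcium-binding protein, read 673, 639.6 and 1087 against 276, 297 and 263 (difference -1.43, adjusted p = 0.0029), and Upp1, a uridine phosphorylase, 134, 151 and 235 against 49.2, 66.4 and 75.9 (difference -1.22, adjusted p = 0.00955). Acaa1b, a peroxisomal thiolase (-1.34, adjusted p = 0.000749), and Tent5c, a poly(A) polymerase (-1.28, adjusted p = 0.00299), were lower as well. Crispld2 (-1.56) and Gga1 lost their calls only when both groups were fitted alone. Sox6, Rhbdf2 and Arhgef3, at -1.62, -1.49 and -1.38, lost theirs under several alternatives, including without withdrawal replicate 3. Sox6, a transcription factor of the SOX family, read 12, 10.7 and 13.5 after replacement, under the limit for dim probe sets.

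**Figure D3:**
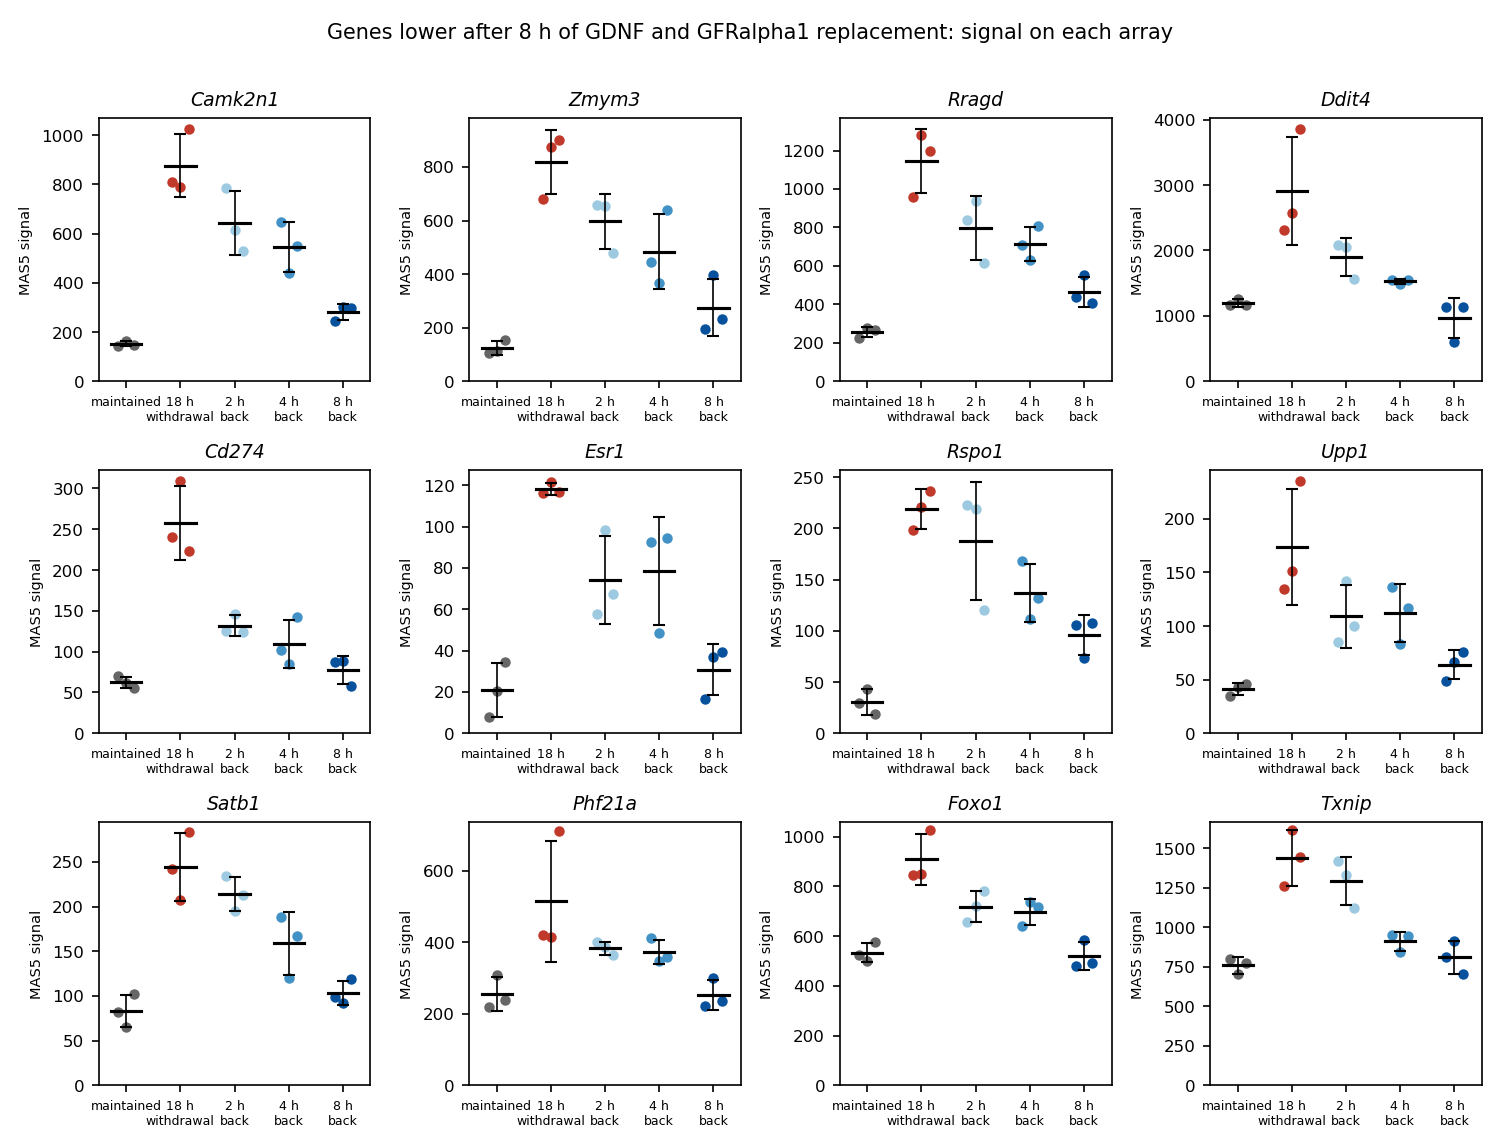
MAS5 signal on each array (points), with group mean (bar) and SD (error bar), for 12 genes that were lower after 8 h of replacement, across the same 5 groups. In each panel the 3 withdrawal arrays lie above the 3 arrays after 8 h, and groups did not overlap for 312 of the 313 called genes. Camk2n1 goes from 875 ± 129 to 281 ± 32.8 against 152 ± 10.2 in maintained cultures.

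Metabolic and cell cycle lists held few called genes at 8 h. Hk2, the inducible hexokinase, read 499, 443 and 517 against 836, 1005 and 861 (difference 0.87, SE 0.14, adjusted p = 0.00435), whereas Hk1, the constitutive form, fell from 468, 493 and 478 to 304, 375 and 325 (difference -0.50, adjusted p = 0.029). Both groups were separate for each gene, and no other of 24 genes of glucose uptake, glycolysis and the pentose phosphate pathway was called (median -0.08, or 0.04 without withdrawal replicate 3). The other, dimmer probe set of Hk1 was not called (-0.30), and the Hk1 call ended under 6 alternatives, among them the mean of both. Of 28 sterol genes only Msmo1, a methylsterol oxidase, was called higher in limma (0.64, adjusted p = 0.0444), and this call ended under most alternatives, including without withdrawal replicate 3. The list median was 0.12, with Idi1 at 0.09 and Hsd17b7 at -0.46, neither called. None of 18 fatty acid genes was called in limma, with 5 at an unadjusted p under 0.05 (median 0.10), against 15.3% of all genes.

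Of 50 G1/S and DNA replication genes, Ccnd2 rose and Chaf1b, a histone chaperone subunit, fell (-0.83, adjusted p = 0.00685), with a median within 0.01 of 0 whose sign turned with quantile normalization (0.02). Of 28 G2/M genes 1 fell, the mitotic phosphatase gene Cdc25c (-0.87, adjusted p = 0.0145; median -0.11). Myc was the 1 called gene of 39 ribosome biogenesis, MYC-linked and polyamine genes, whose median was -0.10, or 0.02 without withdrawal replicate 3. Xbp1, a factor of secretory protein folding, rose by 0.65 (adjusted p = 0.0222) as the 1 called gene of 29 chaperone genes. Of 26 p53 and BCL2 family genes Plk3 rose and Bik, a death-promoting BH3 protein, fell (-0.93, adjusted p = 0.0375). In the chemokine, ephrin and heparan sulfate list of 32, Cxcr4, which is also in the laboratory's list, and Epha2 rose and none fell (median 0.20).

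**Figure D4:**
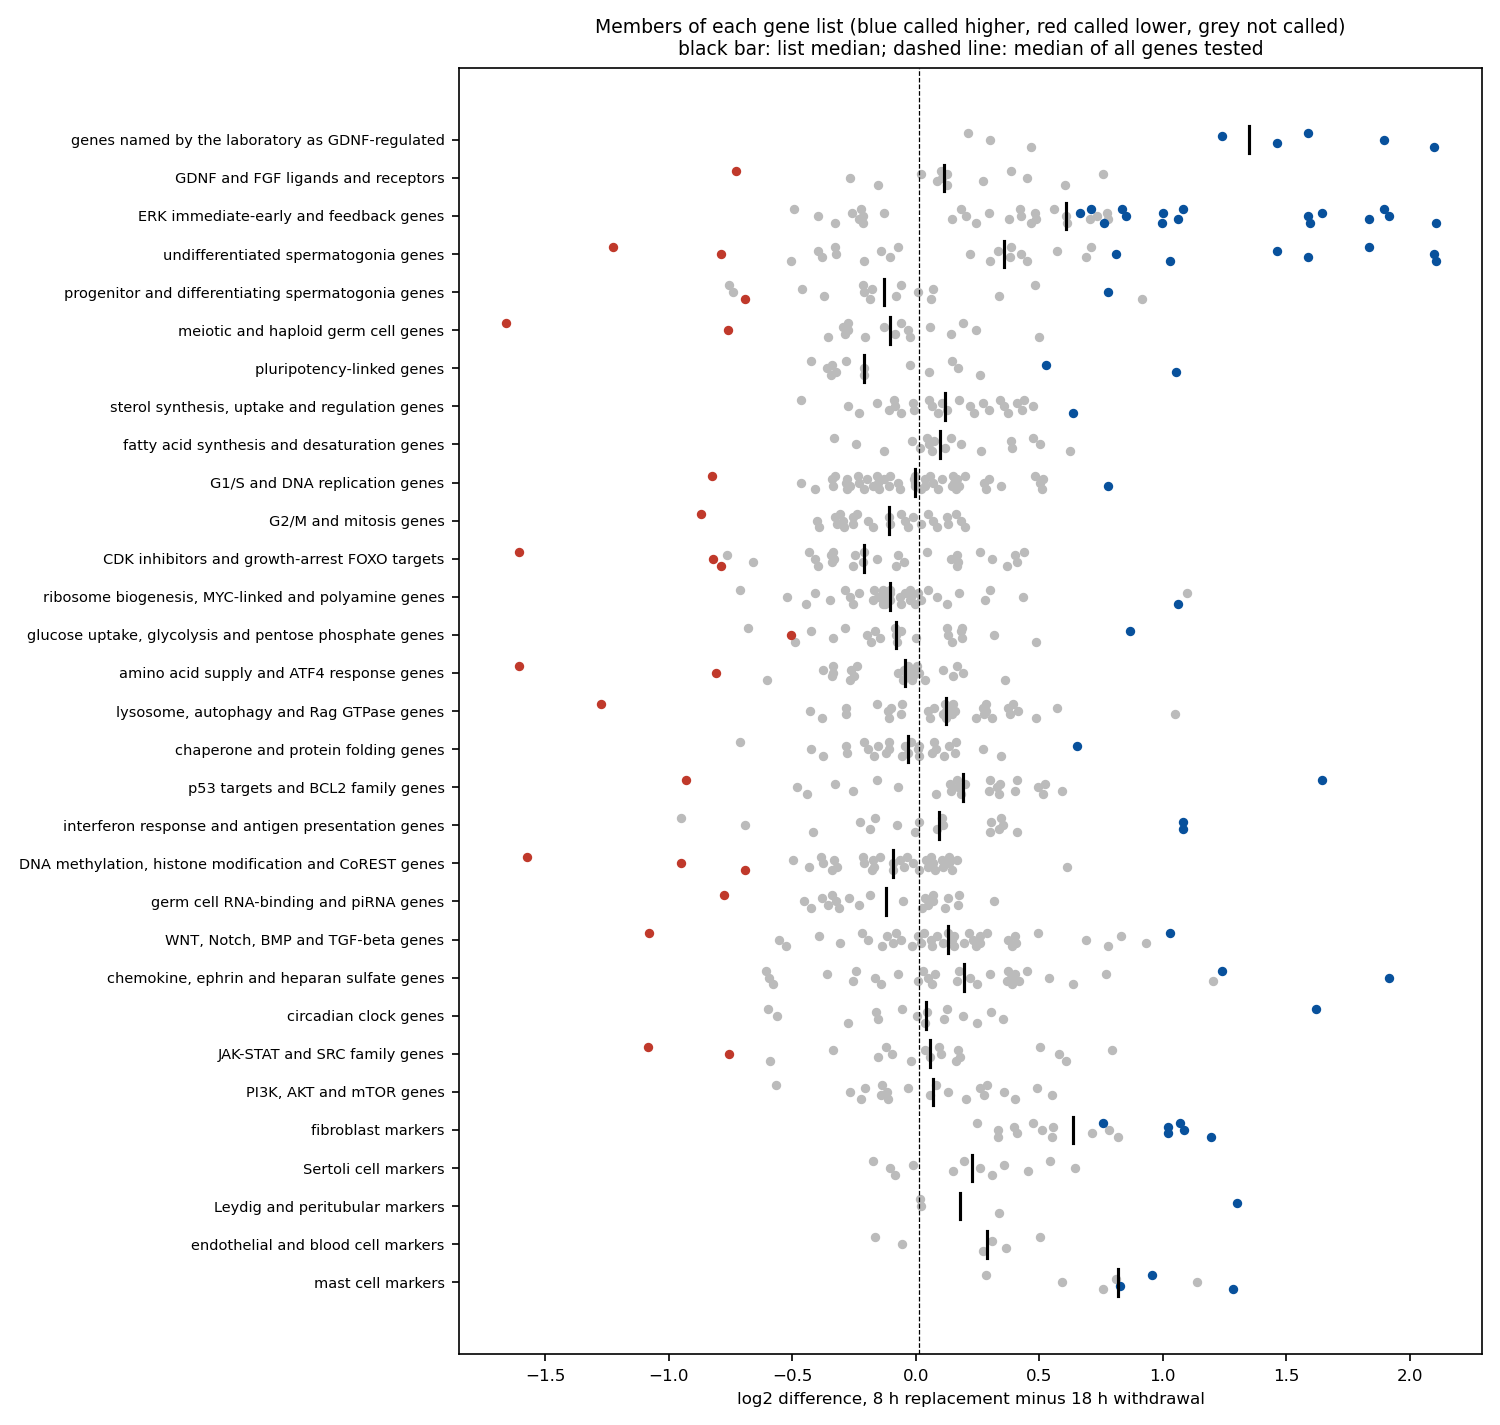
Log2 difference of each tested gene (points) in the 31 gene lists, 8 h of replacement minus withdrawal, with each list's median; called genes are coloured. The list medians run from -0.21 to 1.35, with the laboratory's list highest, followed by the mast cell (0.82), fibroblast (0.64) and ERK (0.61) lists.

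Marker transcripts of cells other than germ cells also stood higher after 8 h of replacement. Of 18 fibroblast markers tested, 6 rose, none fell and all 18 were positive, with a median of 0.64. Of 8 mast cell markers, 3 rose, none fell and all 8 were positive, with a median of 0.82. Over all genes, 1.3% were called higher and 51.8% were positive. In RNA from whole cultures, fewer cells of a type and less RNA per cell cannot be told apart, nor can more of either. The summed signal of 19 fibroblast markers was 10218 to 16100 on the withdrawal arrays, highest on replicate 3, and 17918 to 22256 after 8 h of replacement. It was 6807 to 11557 at 2 h, 18353 to 21886 at 4 h and 10695 to 14062 in maintained cultures. The 10 mast cell markers summed to 1938 to 2630 on withdrawal and 3414 to 5364 after 8 h, against 1526 to 1910 in maintained cultures. Germ cell markers, 6 in number, summed to 10630 to 12677 on withdrawal and 10915 to 11936 after 8 h, so these ranges overlapped. Much of this sum was Dazl, with means of 5682 on withdrawal and 5838 after 8 h, where the summed means were 11854 and 11346.

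The called mast cell genes encode granule proteases. Mcpt4, a mast cell protease, read 366, 416 and 445 against 655, 1444 and 1105 (difference 1.28, adjusted p = 0.029), Cpa3, the mast cell carboxypeptidase, 564, 589.5 and 709 against 1017, 1439 and 1226 (0.96, adjusted p = 0.0117), and Cma1, chymase, 391, 496 and 701 against 724, 1099.5 and 992 (0.83, adjusted p = 0.0253). Hdc and Mcpt1, further mast cell genes, were below the filter. Among fibroblast genes, the fibrillar collagen gene Col3a1 read 1153, 1295 and 2003 against 2801, 3567 and 2905 (1.08, adjusted p = 0.0275) and Col5a2 133, 81.7 and 124 against 269, 274 and 279.7 (1.20, adjusted p = 0.0155). Pdgfra (1.02), the matrix protein gene Postn (1.07), the intermediate filament gene Vim (1.02) and Twist1 (0.76) were the other called fibroblast markers. The other probe sets of Vim (both 0.58) and Col3a1 (0.80) were not called in the fit over all probe sets, and there the probe sets that stand for these genes were not called either (adjusted p = 0.0534 for Vim and 0.0523 for Col3a1). The fibroblast count was 11 without withdrawal replicate 3 and 15 with array weights, and 0 without withdrawal replicate 2 or without 8 h replicate 2 or 3. The mast cell count was 4 without withdrawal replicate 3, and 0 without 8 h replicate 2 or 3.

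Cyp11a1, the side-chain cleavage enzyme of steroid synthesis, read 47.4, 48.1 and 79.1 against 147, 186 and 159.6 (1.30, adjusted p = 0.0223) and was the 1 called gene of 4 Leydig and peritubular markers tested. Cyp17a1 and Hsd3b1, also of steroidogenic cells, and the smooth muscle genes Myh11, Tagln and Cnn1 were below the filter. Summed Leydig and peritubular signal was 560 to 584 on withdrawal and 695 to 873 after 8 h. None of 12 Sertoli cell markers and none of 6 endothelial and blood cell markers was called in limma, with 1 of each at an unadjusted p under 0.05. Their sums were 1054 to 1241 on withdrawal against 1224 to 1399 after 8 h for Sertoli cells, and 457 to 586 against 549 to 750 for endothelial and blood cells. The defining Sertoli gene Amh and the endothelial and blood genes Pecam1, Vwf and Ptprc were below the filter.

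These marker levels stand beside the rises described above, and their part in those results was not tested. Adh1, an alcohol dehydrogenase among the 15 largest rises, read 128, 162 and 229 against 456, 533 and 412 (difference 1.38, adjusted p = 0.00537) and was lower in maintained cultures, at 138 ± 17.1. B2m (1.08, adjusted p = 0.0233) and H2-K1 (1.08, adjusted p = 0.02), which encode parts of MHC class I molecules, were the called members of 20 interferon and antigen presentation genes. The median of that list was 0.10. B2m lost its call without withdrawal replicate 3 and without each 8 h replicate, and its other probe set, at 0.72, was not called. For H2-K1 none of 3 other probe sets was called.

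**Figure D5:**
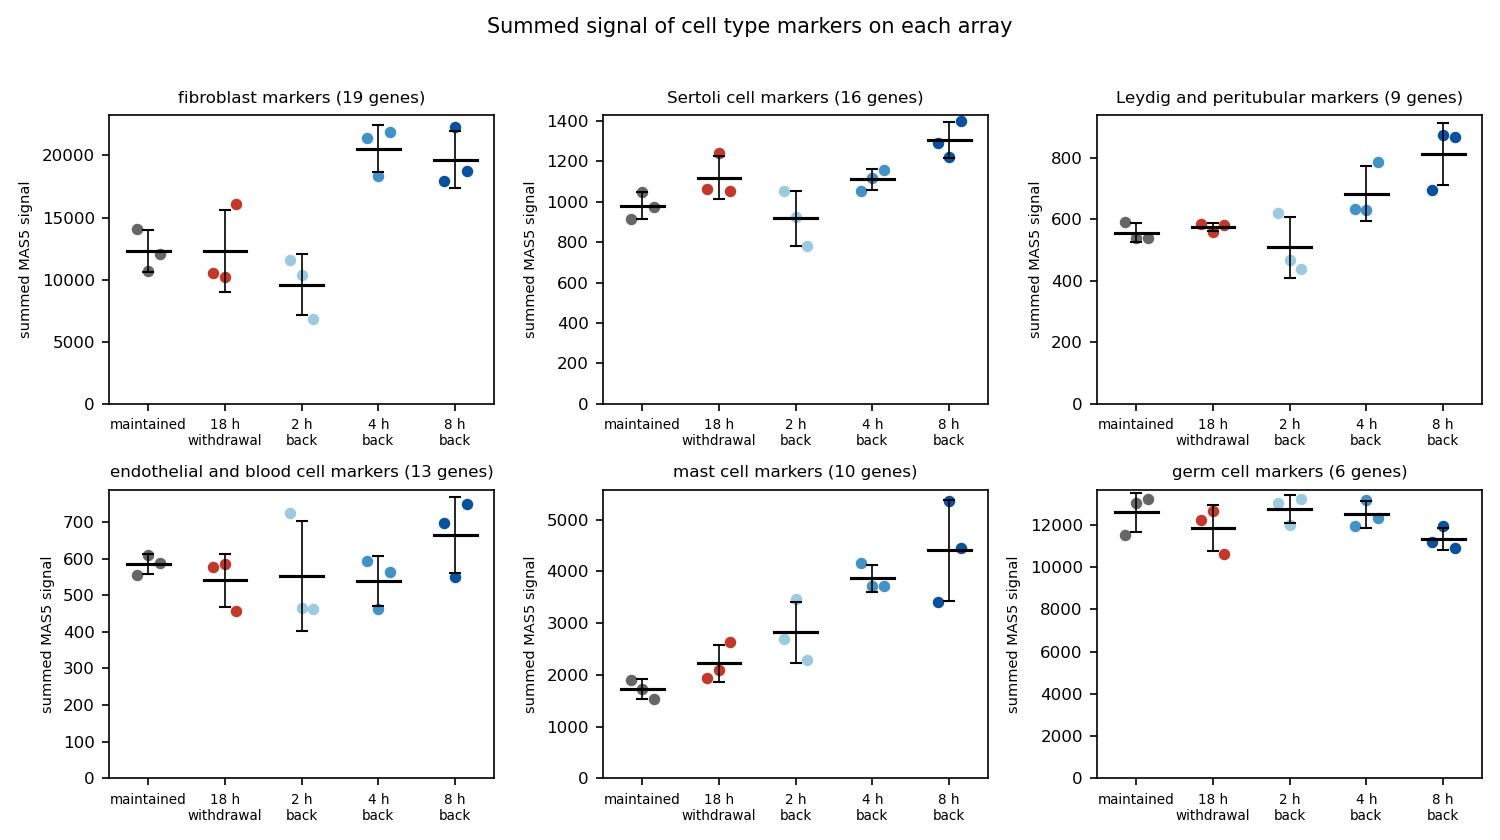
Summed MAS5 signal of cell type marker lists on each array (points), with group mean (bar) and SD (error bar). Fibroblast and mast cell sums after 8 h of replacement, 17918 to 22256 and 3414 to 5364, lie above the withdrawal ranges, while the germ cell sums overlap.

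Between 4 h and 8 h of replacement no gene was called in limma, or 0% higher and 0% lower, while 1943 genes had an unadjusted p under 0.05. The median difference of all genes, 8 h minus 4 h, was 0.05, and it moved to -0.09 with arrays shifted to 1 median. No gene could therefore be named as differing by the threshold, and values are given for orientation. Camk2n1 was at 546 ± 103 after 4 h and 281 ± 32.8 after 8 h (difference -0.91, adjusted p = 0.113). Hk2 was at 564 ± 61.8 after 4 h and 901 ± 91.3 after 8 h (difference 0.66, adjusted p = 0.113). Pou3f1, a POU domain factor, was at 338 ± 56.4 after 4 h and 188 ± 8.02 after 8 h (difference -0.78, adjusted p = 0.113). Without 4 h replicate 1, 63 genes were called.

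A last comparison set 8 h of replacement against maintained cultures. It called 63 genes, with 36 above and 27 below maintained cultures (0.275% and 0.206% of genes). With quantile normalization the split was 34 and 42, and with arrays shifted to 1 median 18 and 65, where the median of all genes moved from 0.06 to -0.08. On withdrawal against the same maintained arrays, 551 genes had been higher and 501 lower (4.21% and 3.83%), or 265 and 646 with arrays shifted to 1 median. Both contrasts share the maintained arrays, so they are set side by side without a test between them. The 63 calls became 27, 15 and 13 without 8 h replicates 1, 2 and 3, and 154, 26 and 13 without maintained replicates 1, 2 and 3.

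Sox2, a pluripotency factor, read 44, 41.4 and 26.6 on the withdrawal arrays and 51.6, 41.1 and 49.3 after 8 h, against 224 ± 10.2 in maintained cultures. The difference from withdrawal was 0.26 (95% interval -0.19 to 0.72) and that from maintained cultures -1.93 (adjusted p = 0.000822). Krt19, a keratin, was at 13.5 ± 7.66 against 133 ± 23.7 (difference from maintained -2.36, adjusted p = 0.0093), and its signal after 8 h was under the limit for dim probe sets. Pou3f1 was at 188 ± 8.02 against 379 ± 66.4 (-0.94, adjusted p = 0.0115). Slc2a3, a neuronal-type glucose transporter, was at 749.6 ± 151 against 1881 ± 133 (-1.32, adjusted p = 0.00142). The corepressor gene Skor1 (-1.59), the endocytic adaptor gene Snap91 (-1.49) and Cd24a (-1.38) were the other largest deficits from maintained cultures. The sterol genes Idi1 (-0.91) and Hsd17b7 (-1.06) also stayed below them.

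On the other side, genes that had fallen with replacement could still exceed maintained cultures. Camk2n1 was above them by 0.81 (adjusted p = 0.037), Rragd by 0.81 (adjusted p = 0.0452) and Rspo1 by 1.28 (adjusted p = 0.0185). Egr4 (0.87) and Sohlh1 (1.00), a factor of early spermatogonial differentiation, were above maintained cultures as well. The largest excesses belonged to the serpin genes Serpina3n (2.19, adjusted p = 0.0185) and Serpinb1a (1.64, adjusted p = 0.000822), the mast cell genes Tpsb2 (1.71) and Mcpt4 (1.58), and Adh1 (1.65). Serpina3n read 194.5, 29.7 and 178.6 in maintained cultures, so the low value of replicate 2 enlarges its excess and its rank. Serpinb1a read 70.2, 73.5 and 78.6 on withdrawal and 187, 227 and 153 after 8 h (difference 1.17, adjusted p = 0.00364). Serpina3n (0.93, adjusted p = 0.275) and Tpsb2 (1.14, adjusted p = 0.121) were not called against withdrawal. The mast cell and fibroblast sums were higher after 8 h than in maintained cultures too (fibroblast sums 17918 to 22256 against 10695 to 14062), and their part in this comparison was not tested.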

How the data were processed

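RNA of 15 samples was measured on single-colour arrays, 1 array per sample, and all 15 were used. Per the submitters' processing notes, the authors computed the signal with MAS5, which combines the probes of a probe set. The deposited values are this linear intensity, for 45101 probe sets. The MAS5 version is not given in the sources used here, and neither is its scaling target, but each array had a trimmed mean of 150. Of the probe sets, 34945 carried 1 gene symbol in the platform annotation, 932 several and 9160 none, with 64 controls apart. RefSeq held 34741 of the named ones and changed 0 symbols. Promoter windows came from RefSeq.

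Analysis used log2(signal + 16), a scale that compresses dim values and understates their folds. The filter dropped the dimmest 40% of probe sets (signal under 30.5), and of several probe sets of a gene the one with the highest mean log2 value stood for it, giving 13083 genes. Further probe sets of a gene were judged in a fit over all probe sets with its own adjustment, in which the chosen probe sets of Bik, Ccnd2, Col3a1, Fgfr4, Msmo1 and Vim, called among genes, were not called. All 5 groups were fitted in limma 3.58.1 (R 4.3.3) with eBayes and a variance trend, at 10 residual degrees of freedom. Tests were two-sided, adjusted by Benjamini and Hochberg's method, and called under 0.05. The fit was tested on simulated data.

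The members and the 31 gene lists (804 genes, 688 tested) were chosen with earlier results of these data known. Named genes were the 15 largest rises and falls with groups of arrays that did not overlap, up to 5 called members of each list, 5 each way against maintained cultures and 19 set genes, without clone symbols. Other names, such as Junb, Egr1, Ier2, Fos, Ier3, Zfp36, Dusp7, Phlda1, Spry2, Egr4, Epcam, Upp1, Twist1, Foxo3, Slc2a3, Idi1, Hsd17b7, Sohlh1 and those below the filter, were chosen after their values were seen. Alternatives changed the constant, filter, scaling, probe set rule, samples in the fit, variance model and array weights, added a replicate block, and left out each array in turn. Deviations from the group means correlated at 0.11, -0.15 and -0.08 between same-numbered arrays of both groups. The best correlations with an array of another number were 0.08, 0.21 and 0.07. With 3 arrays per group such correlations cannot decide whether the numbers pair the arrays, and the main fit used no pairing.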

Additional observations from a re-analysis of the deposited data

How the results depend on the processing

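The count of 313 genes between 8 h of replacement and withdrawal was 238 to 409 under the other constants, filters, scalings, variance models and probe set rules. It was 121 when only both groups were fitted, 1192 with array weights, and 100 to 353 without each array in turn, lowest without 8 h replicate 2. Between 8 h and 4 h the count of 0 became 3 with a constant of 64, 2 with arrays shifted to 1 median and 278 with array weights, and it was 0 to 63 without each array. Against maintained cultures the 63 genes became 180 when only both groups were fitted, 1280 with array weights and 13 to 154 without each array, highest without maintained replicate 1. On withdrawal against maintained cultures, alternatives added after seeing the data gave 313, 2297 and 517 to 1014 in place of 1052, with 659 without withdrawal replicate 3, 531 without maintained replicate 2 and 517 without maintained replicate 3. Whether replicate numbers pair the arrays could not be decided. With a replicate block the counts were 316 (283 shared with the 313), 0, 56 and 1121. Of the 66 called named genes, 27 were called under every alternative that tested them (18, or 17 for Plk3 and Nim1k) and 39 lost the call under 1 or more, 24 of them when only both groups were fitted, 9 without withdrawal replicate 3 and 2 with the replicate block. No named gene changed sign while called. The causes of these shifts were not tested. The number of arrays limits the precision, with a median standard error of 0.19 on the log2 scale.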

Other observations

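Some called genes outside the gene lists, chosen after their values were seen and named as values only, belong to families with more than 1 called member. Members of these families that were not called were not counted, so no share called can be set beside the 1.3% of all genes. The glutathione transferase genes Gstm1, Gstm2 and Mgst1, enzymes of detoxification, were higher after 8 h of replacement than after withdrawal. Gstm2 read 109, 88.8 and 131 against 212, 327 and 249.8 (difference 1.14, limma adjusted p = 0.00563), Mgst1 185, 232 and 222 against 413, 464 and 358 (0.90, adjusted p = 0.0115) and Gstm1 305, 316 and 352 against 439, 612 and 552 (0.68, adjusted p = 0.0286). All 3 were also above maintained cultures, by 0.91, 0.97 and 0.85 on the log2 scale. The imprinted genes Plagl1 (1.24, adjusted p = 0.0364), Mest (1.17, adjusted p = 0.0113) and Igf2 (0.48, adjusted p = 0.0444) rose, Igf2 to 1018 ± 22.7 against 1627 ± 74.9 in maintained cultures. The neurofilament genes Nefm and Nefl rose as well, Nefm from 895, 637 and 605 to 1574, 1541 and 1505 (1.12, adjusted p = 0.00654) and Nefl by 0.88 (adjusted p = 0.0174).

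Among the falls outside the lists, Ptch1, the hedgehog receptor, read 129, 136 and 127 against 66.8, 45.9 and 40.9 (difference -1.15, limma adjusted p = 0.00518), with 42.8 ± 5.19 in maintained cultures. The RNA-binding gene Msi2 fell from a mean of 518 ± 95.2 to 236 ± 38.1 (n = 3 each, -1.08, adjusted p = 0.00296). Hes5, a target of Notch signalling, fell from 132, 89.8 and 141 to 43.5, 45.1 and 52.6 (-1.10, adjusted p = 0.0399). Rhebl1, a small GTPase related to the mTORC1 activator RHEB, read 363, 341 and 384 against 132, 168 and 196 (-1.07, adjusted p = 0.00689) and was lower than in maintained cultures, at 324 ± 69.3.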
